A study of Mus musculus with 2 samples.

Results

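Gamma-delta T cells are T lymphocytes whose antigen receptor pairs a gamma with a delta chain in place of the alpha and beta chains. They were chosen here by their counts of a few genes: a barcode had to hold Cd3e or Cd3g, which encode invariant chains of the CD3 complex, and at least 1 UMI (a counted mRNA molecule) of Trdc, the delta constant segment. It also had to be free of Cd4, Cd8b1, Foxp3, Ncr1, Csf1r and Csf3r, to hold at most 1 UMI of the complement genes C1qa, C1qb and C1qc together, and to hold fewer than 3 of 6 cell cycle genes. This left 125 of 16798 barcodes that passed a filter of 300 genes, 800 UMIs and no more than 10% mitochondrial UMIs. The study profiled single cells of mouse tumours in droplets and compared 1 control library with 1 library from mice given motolimod, which activates the RNA sensor TLR8. Tumours of 5 mice per group were digested and the cells enriched on beads for the pan-leukocyte protein CD45, and the loading of each library, which the labels name a 3′ library, was set at about 30000 cells. The labels name neither strain nor age, tumour model, dose or time, give no treatment of the control mice, and do not state how many mice each library holds. With 1 library in each group there is no replicate check and no test, and every interval below is a 95% interval that covers counting error only.

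As background, mouse gamma-delta T cells fall into groups that leave the thymus in waves and are named by their variable (V) segments. Cells that join the gamma segment Tcrg-V6 to the delta segment Trdv4 (Vγ6 and Vδ1 in a common naming) arise before birth, settle in tissues such as skin, lung and uterus, and are known as a source of interleukin 17. Cells marked by CD27 more often make interferon gamma. In tumours, interleukin 17 from gamma-delta T cells is known to draw in neutrophils.

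The germline segments of which most members held a UMI are shown as the last 240 bases of their last coding exon. They are read 5′ to 3′ on the plus strand of mm10 from the GENCODE M21 transcripts. Whether those UMIs came from joined receptor mRNA was not tested. The printed bases lie at chr13:19190690-19190929 for Tcrg-V6 and chr14:54075276-54075515 for Trdv4. Capitals mark the last 16 and the last 15 bases, from the TGT codon of the conserved cysteine to the end of the segment, where joining to the next segment takes place.
Tcrg-V6: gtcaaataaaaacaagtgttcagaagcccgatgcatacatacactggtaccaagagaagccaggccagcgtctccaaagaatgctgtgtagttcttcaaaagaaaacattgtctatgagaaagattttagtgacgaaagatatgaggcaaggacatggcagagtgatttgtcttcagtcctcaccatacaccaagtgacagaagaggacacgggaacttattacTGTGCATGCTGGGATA
Trdv4: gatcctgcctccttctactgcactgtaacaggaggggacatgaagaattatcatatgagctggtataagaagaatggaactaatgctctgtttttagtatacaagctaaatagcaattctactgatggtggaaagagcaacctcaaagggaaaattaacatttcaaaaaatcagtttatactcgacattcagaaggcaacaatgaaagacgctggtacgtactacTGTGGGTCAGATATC
The whole coding part of the Tcrg-V6 exon was 48.8% to 53.9% identical to those of Trdv4, Tcrg-V1, Tcrg-V4, Tcrg-V5, Tcrg-V7 and Trgv2. The exons of Trgv2 and Tcrg-V1 were 95.1% identical, so the split of reads between this pair is uncertain, as it is among the constant segments Tcrg-C1, Tcrg-C2 and Tcrg-C4, which are near copies. Annotated genes of other names overlap Tcrg-V6 (Gm31887), Trdv4 (Gm30275) and Trdc (Gm43434 and Trdv5), and whether counting used the strand of the reads is not given in the sources used here.

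The genes that chose the members are described without reading anything from them. Trdc had 1 to 6 UMIs in a control member and 1 to 15 in a motolimod member, with medians of 2 and 3. At the edge of the rule, 29 of 59 control and 20 of 66 motolimod members held exactly 1 Trdc UMI. Just outside it, 48 control and 45 motolimod barcodes met every other limit but held no Trdc UMI. A further 11 and 17 barcodes held Trdc but neither Cd3e nor Cd3g. The limits on other genes left out 43 of 102 control and 29 of 95 motolimod barcodes with both Trdc and a CD3 gene, most of them for Csf1r, the receptor of the macrophage growth factor (32 and 24), or for 2 or more C1q UMIs (32 and 20).

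Gamma-delta T cells were rare in each library. There were 59 among 7484 control barcodes (0.788%, exact Clopper-Pearson interval 0.601 to 1.02) and 66 among 9314 motolimod barcodes (0.709%, 0.548 to 0.901). The ratio of these shares was 0.899, with an interval from 0.623 to 1.30 that spans 1. Among barcodes with Cd3e or Cd3g they made up 6.38% (59 of 925) and 8.39% (66 of 787), a ratio of 1.31 (0.911 to 1.90). With the barcodes gated as neutrophils taken out of the denominator, the shares were 0.824% and 0.821%. No difference in share was thus detectable at this depth, and the side of 1 depended on the denominator.

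The members held a median of 2651 UMIs and 1214 genes in the control library (1133 to 7574 UMIs) and 3513 UMIs and 1475.5 genes in the motolimod library (1142 to 27206 UMIs). Over all passing barcodes the medians ran the other way, at 14055 and 3742.5 UMIs. Shares of cells with a UMI are therefore also given after each member was thinned to 1000 UMIs, which left out no member. The libraries shared 113 barcode sequences, none of them a member in both. The barcodes of 1 control and 3 motolimod members also occurred in the other library.

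Most members of both libraries held mRNA of the Tcrg-V6 and Trdv4 segments. Trdv4 was present in 56 of 59 control members (94.9%, 85.9 to 98.9) and 53 of 66 motolimod members (80.3%, 68.7 to 89.1), with a median of 4 and 5 UMIs and a highest value of 20 and 23. Tcrg-V6 was present in 46 (78.0%, 65.3 to 87.7) and 48 members (72.7%, 60.4 to 83.0), with a median of 1 and 2 UMIs and a highest value of 8 and 9. At least 1 of these segments was found in 57 control (96.6%) and 55 motolimod members (83.3%), and both were found in 45 and 46. After thinning, Trdv4 was seen in 76.3% and 63.6% of members and Tcrg-V6 in 47.5% and 37.9%. Macrophage-gate barcodes held Tcrg-V6 in 1 of 2787 control and 0 of 2160 motolimod cases, at median depths of 16078 and 7616 UMIs. The count of 0 allows a share of up to 0.139%. That gate left out barcodes with a Cd3e, Cd3g or Trdc UMI, so it is a limited check on free RNA. Trdv4 was seen in 14 and 9 of the same macrophage-gate barcodes (0.502% and 0.417%). It was also seen in 5 of 13 control and 13 of 43 motolimod NK barcodes, where Tcrg-V6 had none. Neither segment had a UMI in the 75 and 164 CD8 T cells gated by Cd8b1.

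Other V segments were found in fewer members. Trgv2 was found in 15 control and 21 motolimod members, of which 13 and 15 also held Tcrg-V6. Tcrg-V5, the segment of skin-resident dendritic epidermal T cells, was found in 8 and 3 members, of which 5 and 3 also held Tcrg-V6. Tcrg-V4, that of another interleukin 17 producing group, was found in 1 and 6, and Tcrg-V1 in 4 and 5. Tcrg-V6 or Trdv4 was also held by 1 and 4 of those with Tcrg-V4 and by 4 and 4 of those with Tcrg-V1. Tcrg-V7, known from the gut epithelium, had 1 UMI in the control and none in the motolimod members. Trdv5 was found in 2 and 4 members, Trdv2-2 in 0 and 5, and Trdv1, Trdv2-1 and Trdv3 in none. Among the constant segments, Tcrg-C1 was found in 39 and 54 members, Tcrg-C2 in 10 and 21 and Tcrg-C4 in 9 and 24. Which end of the mRNA was read is uncertain: the barcodes begin like those of another barcode list than the one usual for the kit in the labels, and Trdv4 had 292 and 387 UMIs against 121 and 220 of Trdc. UMIs of V and constant segments are therefore not compared as levels.

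The signalling chains of the receptor were present at close levels in the libraries. Levels are UMIs summed over members and scaled to CPM, a share of all UMIs of the members of that library, and ratios are motolimod over control. Cd3g was at 1494 CPM in the control and 1477 in the motolimod members, Cd3d at 1025 and 922, Cd3e at 854 and 870, and Cd247, the zeta chain, at 360 and 397. The adaptor Lat was at 592 and 630 CPM and the kinase Zap70 at 250 and 251. Lck, the kinase that starts signalling in most T cells, was nearly missing, with 1 and 8 UMIs in 1 and 3 members. Trac, the alpha constant segment, had 13 UMIs in 11 control and 25 UMIs in 15 motolimod members, 11 of the 25 in 1 cell. Trbc1 and Trbc2 were each seen in 20 control members, and in 24 and 29 motolimod members. Trac together with a beta constant segment was found in 6 and 9 members, all of which also held Tcrg-V6 or Trdv4; whether such droplets held RNA of another T cell was not tested.

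**Figure D1:**
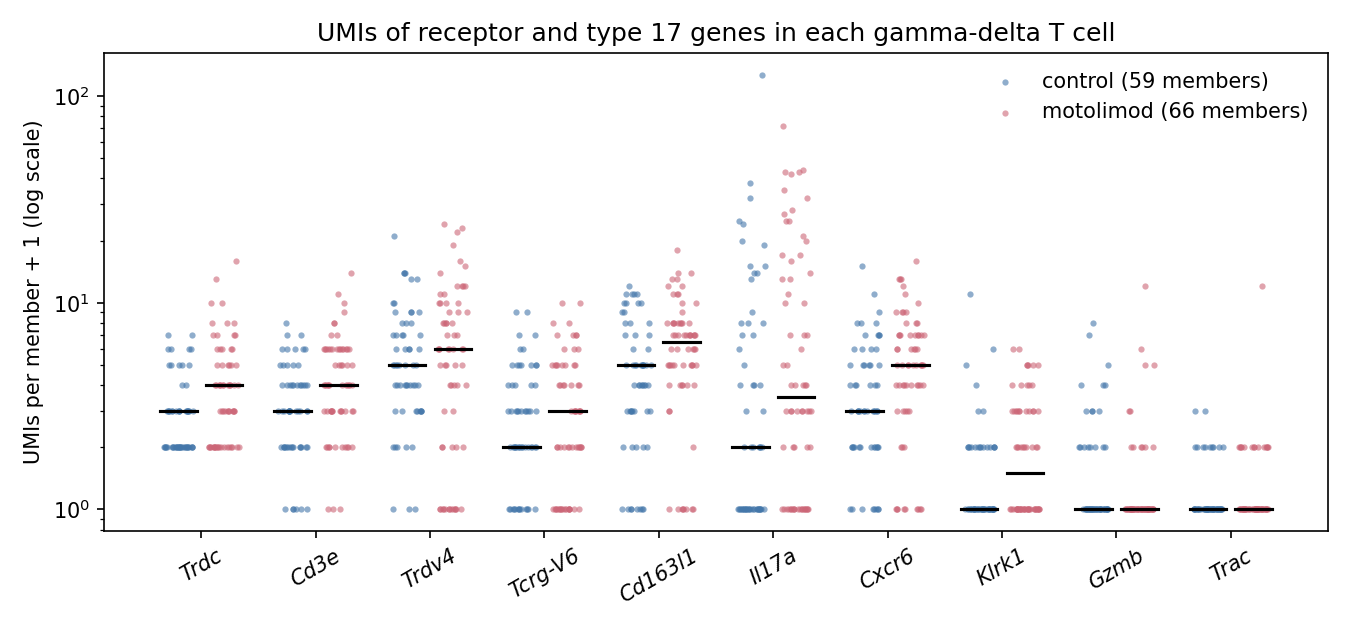
UMIs per cell (plus 1, log scale) of receptor, type 17 and other genes in the 59 control (blue) and 66 motolimod (red) members, with 1 point per member and a bar at the median. Trdv4, Cd163l1 and Cxcr6 were found in most members of both libraries, while Il17a ran from 0 to 126 UMIs in the control and from 0 to 71 in the motolimod members.

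A small set of members had neither Tcrg-V6 nor Trdv4 and differed from the rest in other genes as well. There were 2 such members in the control library (3.39%, 0.413 to 11.7) and 11 in the motolimod library (16.7%, 8.62 to 27.9). Their median depth was close to that of the others in the motolimod library, at 3241 against 3516 UMIs. Of the 11, 2 held Il17a, the gene of interleukin 17A, against 45 of the 55 others. Cd163l1, a scavenger receptor gene known from interleukin 17 producing gamma-delta T cells, was seen in 5 of 11 and 53 of 55, and Itgae, the CD103 integrin chain, in 1 of 11 and 31 of 55. Pdcd1, which encodes the checkpoint receptor PD-1, was seen in 1 of 11 and 30 of 55.

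Some genes of cytotoxic and type 1 lymphocytes were found in a larger share of this small set, and others were not. All 3 motolimod members with Cd27 were among the 11. Nkg7, a granule gene of cytotoxic cells, was seen in 3 of 11 and 1 of 55, and Xcl1, a chemokine gene of NK and CD8 T cells, in 4 of 11 and 0 of 55. Eomes, a transcription factor of cytotoxic lymphocytes, was seen in 2 of 11 and 0 of 55. Klrd1, which encodes the CD94 receptor chain, was seen in 4 of 11 and 2 of 55, and Lck in 3 of 11 and 0 of 55. Ccl5 was seen in 3 of 11 and 4 of 55 and Ctsw in 4 of 11 and 6 of 55. Gzmb, encoding granzyme B, was seen in 2 of 11 and 10 of 55, and Il2rb, an interleukin 2 receptor chain, in 8 of 11 and 39 of 55. In the control library Ccl5 was in 4 of the 57 members with either segment and 0 of 2 without. Trdv5 was found in 4 of 11 and in none of the 55. Neither of the 2 control members without these segments held Il17a, Cd163l1, Cd27 or Nkg7, and 1 of them held Trdv5. These genes were compared after their values were seen, and a set of 11 cells in 1 library carries wide intervals, such as 2.28% to 51.8% for the share with Il17a.

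The gene starts of Il17a and of the neighbouring Il17f are shown because they are the members of the interleukin 17 family that these cells are known to make. The 250 bases before each start are given on the strand of the gene, from RefSeq on GRCm38.p6, at chr1:20730655-20730904 (plus strand) for Il17a and chr1:20784271-20784520 (minus strand) for Il17f. Capitals mark every match, on either strand, of TATAAA, the TATA element to which the core transcription machinery binds.
Il17a: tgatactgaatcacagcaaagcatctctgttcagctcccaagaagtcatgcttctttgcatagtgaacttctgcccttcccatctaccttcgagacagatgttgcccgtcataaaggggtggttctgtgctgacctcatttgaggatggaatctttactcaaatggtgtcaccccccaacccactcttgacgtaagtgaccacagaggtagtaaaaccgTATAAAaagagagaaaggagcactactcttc
Il17f: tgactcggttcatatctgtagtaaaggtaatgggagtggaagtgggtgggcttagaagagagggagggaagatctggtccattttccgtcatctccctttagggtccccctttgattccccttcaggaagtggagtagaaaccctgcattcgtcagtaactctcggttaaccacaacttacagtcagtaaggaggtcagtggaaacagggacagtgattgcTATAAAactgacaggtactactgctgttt
Each window held 1 TATAAA match, which begins 31 bases before the start in Il17a and 29 bases before it in Il17f. Of 32851 windows of the same length, 12.4% held TATAAA on either strand, and a match is no evidence of binding.

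Il17a mRNA was found in 33 of 59 control members (55.9%, 42.4 to 68.8) and 47 of 66 motolimod members (71.2%, 58.7 to 81.7). The summed level was 2543 CPM (417 UMIs, interval 2305 to 2799.6) in the control and 2343 CPM (625 UMIs, 2163 to 2534) in the motolimod members, a ratio of 0.921 (0.812 to 1.05). After thinning to 1000 UMIs the shares were 49.2% and 47.0%. Neither the level nor the thinned share differed detectably between the libraries at this depth.

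The Il17a mRNA was spread unevenly over the cells. Members with Il17a held a median of 6 UMIs in each library, and the highest held 126 in the control and 71 in the motolimod library. The 3 highest members held 46.5% of the control UMIs and 24.96% of the motolimod UMIs. At least 10 UMIs were found in 12 control (20.3%) and 20 motolimod members (30.3%). The ratio was 1.82 (1.5 to 2.21) among members with 2 or more Trdc UMIs, where 16 of 30 control and 30 of 46 motolimod members held Il17a. The 3 highest control members, with 126, 37 and 31 Il17a UMIs, each held 1 Trdc UMI and were not among these. The highest motolimod member, with 71, held 2 Trdc UMIs and was among them. The side of 1 thus depended on which members were counted. All 33 control members with Il17a also held Trdv4, as did 43 of the 47 in the motolimod library.

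Most of the Il17a mRNA of each library lay in cells with gamma-delta receptor mRNA. The members held 417 of the 802 control UMIs (52.0%, 48.5 to 55.5) and 625 of the 1075 motolimod UMIs (58.1%, 55.1 to 61.1). The barcodes with Trdc and a CD3 gene that the rule left out held a further 19.95% and 28.5%. The CD3-positive barcodes without a Trdc UMI held 14.2% and 9.58%, and 12 of 48 and 4 of 45 of them had Il17a. Among these, Tcrg-V6 was seen in 13 and 11 and Trdv4 in 16 and 11. Conventional CD4 T cells and NK cells held no Il17a UMI in either library, though only 9 and 22 CD4 and 13 and 43 NK barcodes met their gates. CD8 T cells held 0 and 1 UMI. Macrophage-gate barcodes held 4 and 1, in 3 of 2787 and 1 of 2160 barcodes.

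**Figure D2:**
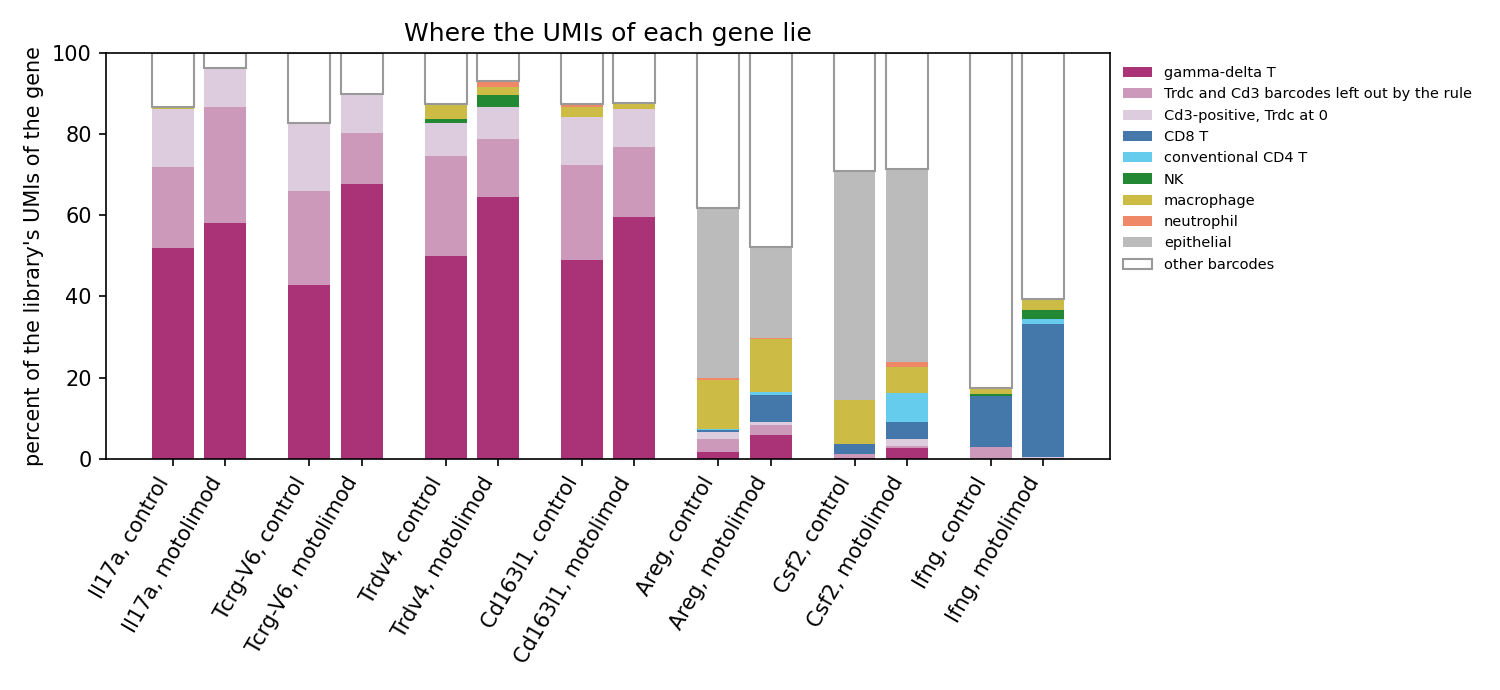
Percent of each library's UMIs of 7 genes found in gamma-delta T cells and in other gated barcodes, with 1 stacked bar per gene and library; white is all other barcodes. Members held 52.0% and 58.1% of the Il17a UMIs in the control and motolimod library, and none or 1 UMI of Ifng.

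The other effector cytokines were each found in fewer members than Il17a. Il17f had 6 UMIs in 3 control members and 32 UMIs in 3 motolimod members, 29 of them in 1 cell, so its ratio of 3.28 (1.35 to 9.59) rests on that cell. Tnf was at 201 CPM in 18 control and 184 CPM in 26 motolimod members. Areg, which encodes the epithelial growth factor amphiregulin, was at 756 and 517 CPM in 20 and 22 members, a ratio of 0.684 (0.533 to 0.879), which was 2.36 among members with 2 or more Trdc UMIs. Csf2, encoding GM-CSF, had 2 and 13 UMIs (ratio 3.99, 0.904 to 36.5). Il22 and Lif had 1 UMI each in the control and none in the motolimod members, and Il21 had none in either. Ifng had 1 control UMI and none in the motolimod members, which allows a share of up to 4.55% of cells with a UMI; CD8 T cells of that library were at 787 CPM.

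Type 17 regulators were present in both libraries. Maf, a transcription factor needed by interleukin 17 producing gamma-delta T cells, was at 329 and 416 CPM. Blk, a Src family kinase otherwise known from B cells, was at 372 and 412 CPM, and Sox13, a transcription factor of the gamma-delta lineage, at 97.6 and 112 CPM. These 3 genes had ratios above 1, with intervals that span 1. The receptors followed: Il7r at 817 and 547 CPM (ratio 0.670, 0.526 to 0.853), Icos at 653 and 634, Il18r1 at 220 and 210, Il23r at 67.1 and 71.2, and Il1r1 at 48.8 and 97.5 CPM. Among the remaining regulators, Rora was at 439 and 334 CPM, Ltb4r1, a leukotriene receptor, at 390 and 277, Cd44 at 336 and 281, and Zbtb16, encoding PLZF, at 110 and 112 CPM.

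Surface and structural genes known from interleukin 17 producing gamma-delta T cells were likewise present in both libraries. Cd163l1 was at 1470 CPM in 51 of 59 control members and 1376 CPM in 58 of 66 motolimod members, with a highest value of 11 and 17 UMIs. The paired membrane genes Tmem176b (1513 and 971 CPM) and Tmem176a (872 and 761 CPM), the calcium-binding S100a4 (1037 and 1132 CPM), the actin-capping Capg (976 and 757 CPM) and the actinin gene Actn2 (518 and 457 CPM) were each found in at least 40 control and 55 motolimod members. Serpinb1a, a protease inhibitor, was at 342 and 172 CPM, a ratio of 0.505 (0.334 to 0.759), and the water channel Aqp3 was at 250 and 150 CPM (0.600, 0.378 to 0.950). Lmna, the lamin A gene, was higher in the motolimod members, at 427 against 207 CPM, a ratio of 2.06 (1.39 to 3.12). It was seen in 23 of 59 and 34 of 66 members, and 26 of its 114 motolimod UMIs lay in 1 cell.

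Homing receptors lay within 2-fold of each other in the libraries. Cxcr6, a receptor of tissue-resident lymphocytes, was at 1080 and 1128 CPM in 51 and 57 members. The integrin gene Itgb7 was at 665 and 476 CPM and its partner Itgae at 232 and 202 CPM. Ccr2, a receptor for inflammatory chemokines, was at 299 and 386 CPM, Cxcr4 at 433 and 371, and Gpr183, an oxysterol receptor, at 396 and 345 CPM. None of the 7 genes of this list that reached 100 CPM differed 2-fold.

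Beside the other lymphocytes of the same libraries, gamma-delta T cells stood apart in a short list of genes. Considered were 1241 genes at 100 CPM or more and seen in at least 10% of members in both libraries. Of these, 48 (3.87%) were at least 2-fold above each of CD8 T, conventional CD4 T and NK barcodes in both libraries. Because the gates for those cells used Trdc and CD3 genes, this is a description. By the smallest margin over these cells the leading genes were Il17a, Cd163l1, Tcrg-V6, Tcrg-C1, Blk, Tmem176b, Itgae, Trdv4, Tmem176a and Abi3bp. Cd163l1 had no UMI in CD8, CD4 or NK barcodes of either library. Itgae was at 1.67 and 2.06 CPM in CD8 T cells and at 0 in CD4 and NK barcodes. Trdv4 was at 84.4 and 74.5 CPM in NK barcodes, against 1781 and 1451 CPM in the members. Zbtb16, Il7r, Ltb4r1, Actn2, Aqp3, Serpinb1a, Krt83, Cxcr6, Cxcr4, Tnf, Fosb and Junb also met this limit.

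A shorter list of genes lay below all 3 comparison cells. Each of 1326 genes reached 100 CPM in the members or in the comparison cells, in every comparison of both libraries. Of these, 16 (1.21%) were at least 2-fold below each of the 3 comparison cells. The 10 with the largest margin were Tigit, Lck, Nkg7, Pglyrp1, Gimap7, Ccl5, Sh2d1a, Cd2, Prkch and Fyb. Nkg7 was at 0 and 127 CPM in the members, against 3092 and 3881 CPM in CD8 T cells and 2040 and 3537 CPM in NK cells. Lck was at 6.10 and 29.99 CPM, against 422 and 487 CPM in CD8 T cells. Ccl5, a chemokine of cytotoxic cells, was at 415 and 202 CPM, against 5977 and 14522 CPM in CD8 T cells, and 63 of its 68 control UMIs lay in 1 member. Gzmb was at 256 and 127 CPM, against 2606 and 1790 CPM in CD8 T cells. The small size of the CD4 and NK groups limits each of these comparisons.

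**Figure D3:**
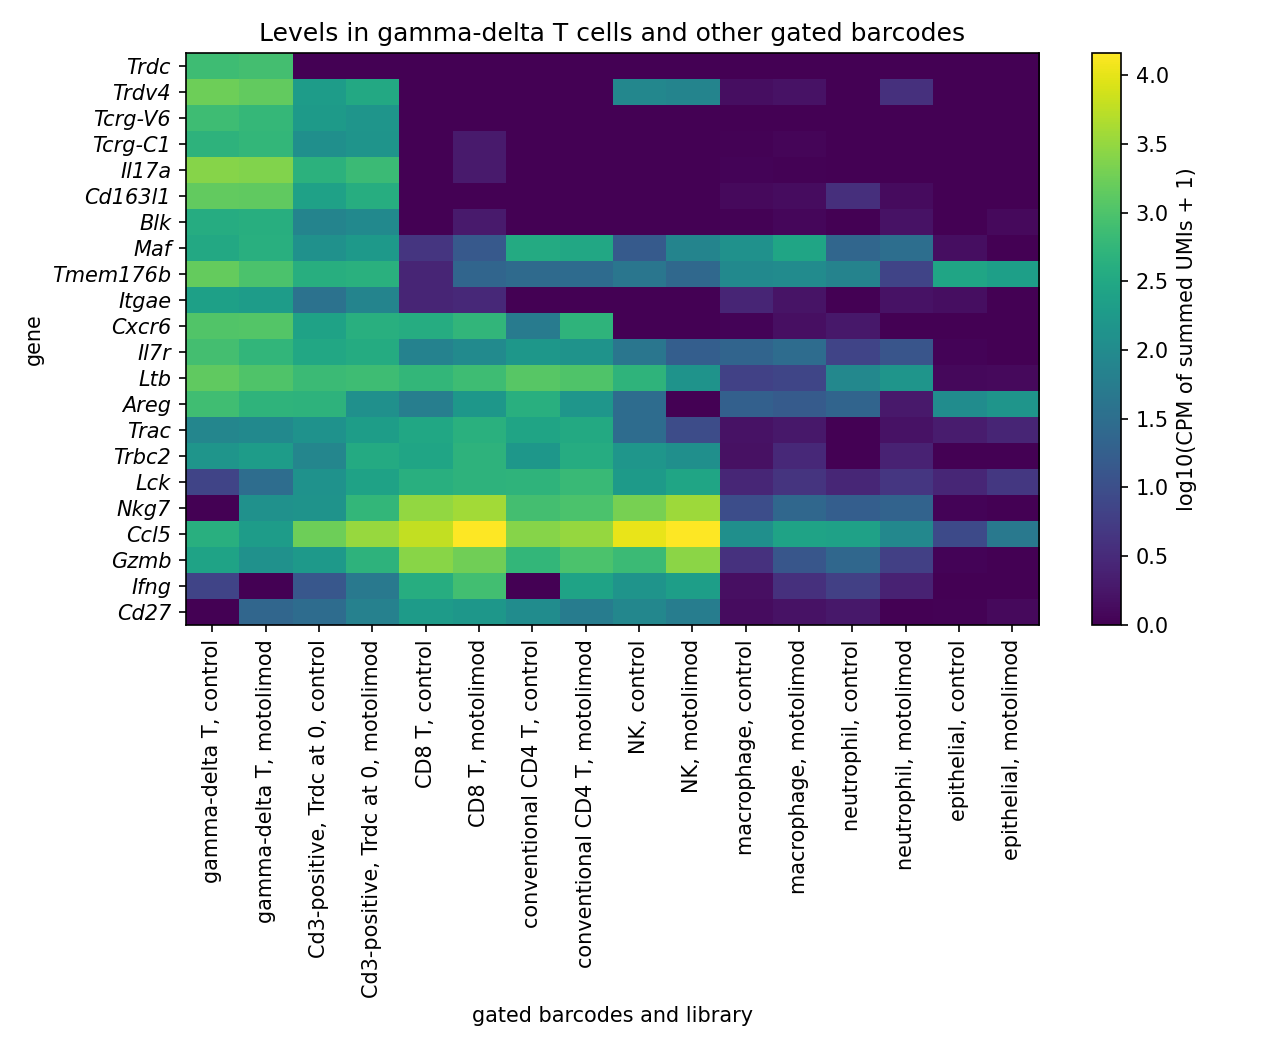
Levels of 22 genes, as log10 of CPM plus 1 (colour), in gamma-delta T cells and other gated barcodes of each library. Il17a, Cd163l1, Tcrg-V6 and Blk are bright in the gamma-delta columns and near 0 in the CD8, CD4 and NK columns, where Nkg7, Ccl5 and Lck are bright.

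Between the libraries, most genes of gamma-delta T cells lay within 2-fold. Of 1725 genes that reached 100 CPM in the higher library, with no minimum share of members, 94 (5.45%) had a level 2-fold or more above the control. A level 2-fold or more below the control was found for 52 (3.01%), and 8.46% differed in either direction. The median log2 ratio of motolimod over control was -0.05, with 782 genes above 0 and 943 below. Of the TCR and CD3 list, 0 of 9 genes past the level differed 2-fold (median 0.14). Of the type 17 regulators, 1 of 16 was higher and 1, Batf, lower (median -0.05); the higher one was Il1rn, the interleukin 1 receptor antagonist gene, with 0 and 30 UMIs, 29 of them in the members with macrophage or neutrophil RNA described below. Of the surface and structural list 1 of 13 was higher and none lower (median -0.20). Of the effector cytokines, 1 of 4 was higher, Il17f (median -0.13). These shares are near or below the background except where 1 gene makes up much of a short list.

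Activation genes were mixed. Of the activation and checkpoint list, 0 of 7 genes were higher and 1 lower, beside 5.45% and 3.01% of all genes, with a median of -0.68. Tnfrsf9, encoding the costimulatory receptor 4-1BB, was at 268 CPM in 18 control and 82.5 CPM in 12 motolimod members, a ratio of 0.307 (0.175 to 0.524). Il2ra, the interleukin 2 receptor alpha chain, was at 220 and 112 CPM (0.512, 0.305 to 0.855) and Pdcd1 at 372 and 232 CPM (0.625, 0.432 to 0.905). Cd69, an early activation and tissue-retention gene, went the other way, at 525 and 795 CPM, a ratio of 1.52 (1.17 to 1.97), and Nr4a1, induced by receptor signalling, was at 1086 and 858 CPM. Batf, an AP-1 factor of effector T cells, was at 159 and 59.98 CPM in 17 and 12 members (0.378, 0.190 to 0.732).

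Immediate early genes were found in both libraries and split in direction. Junb was at 6191 and 4633 CPM (0.748, 0.688 to 0.814) and was found in 59 of 59 and 65 of 66 members. Nfkbia, the NF-κB inhibitor gene, was at 3849 and 2035 CPM (0.529, 0.471 to 0.594), and Ier2 at 1275 and 686 CPM (0.538, 0.439 to 0.659). Fosb was higher with motolimod, at 630 against 287 CPM (2.20, 1.58 to 3.10), in 36 of 66 against 18 of 59 members. Egr1 had 4 and 28 UMIs (4.30, 1.51 to 16.9), 14 of the 28 in the members with macrophage or neutrophil RNA. Its ratio was 0.754 when the 1 cycling barcode of each library was kept. Keeping it took the summed UMIs from 163956 to 189950 in the control and from 266773 to 271166 in the motolimod library. Fos was at 750 and 1027 CPM (1.37, 1.10 to 1.71, with 2.28 among members with 2 or more Trdc UMIs and 1.03 with the cycling barcodes kept), and Dusp1 and Jund had ratios of 1.11 and 0.947. Over the 12 genes, 2 were higher and none lower, beside 5.45% and 3.01% of all genes, with a median of -0.14.

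Of the type I interferon response list, 1 of the 6 genes that reached 100 CPM was higher, Ifi27l2a, and none was lower. Bst2 was at 555 and 555, Isg15 at 427 and 412, Irf7 at 159 and 184 and Rtp4 at 134 and 124 CPM. Ifi27l2a was at 201 CPM in 17 control and 806 CPM in 29 motolimod members, a ratio of 4.004 (2.77 to 5.97). Below 100 CPM, Ifit1 had 1 and 9 UMIs (ratio 5.53, 0.766 to 242), Usp18 1 and 8 (4.92, 0.659 to 218) and Ifit3 5 and 15 (1.84, 0.637 to 6.49). The glycolysis list had none of 8 genes past 2-fold and a median of -0.36, with Pgk1 at 0.522 (0.352 to 0.772), Tpi1 at 0.568 (0.354 to 0.912), Ldha at 0.744 (0.590 to 0.939) and Gapdh, in the other direction, at 1.33 (1.07 to 1.66). Among cytotoxic genes, Gzmb (granzyme B) was at a ratio of 0.498 (0.307 to 0.801), Il2rb at 0.584 (0.436 to 0.781) and Ctsw at 2.25 (1.05 to 5.35). Of that list, 2 of 5 genes were higher and 2 lower, beside 5.45% and 3.01% of all genes, and the median of -0.78 turned to 1.40 without the members with macrophage or neutrophil RNA. Ccl5, which was among the lower genes, turned with it, from 0.488 to 8.28, with 40 of its 54 motolimod UMIs in 1 member.

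**Figure D4:**
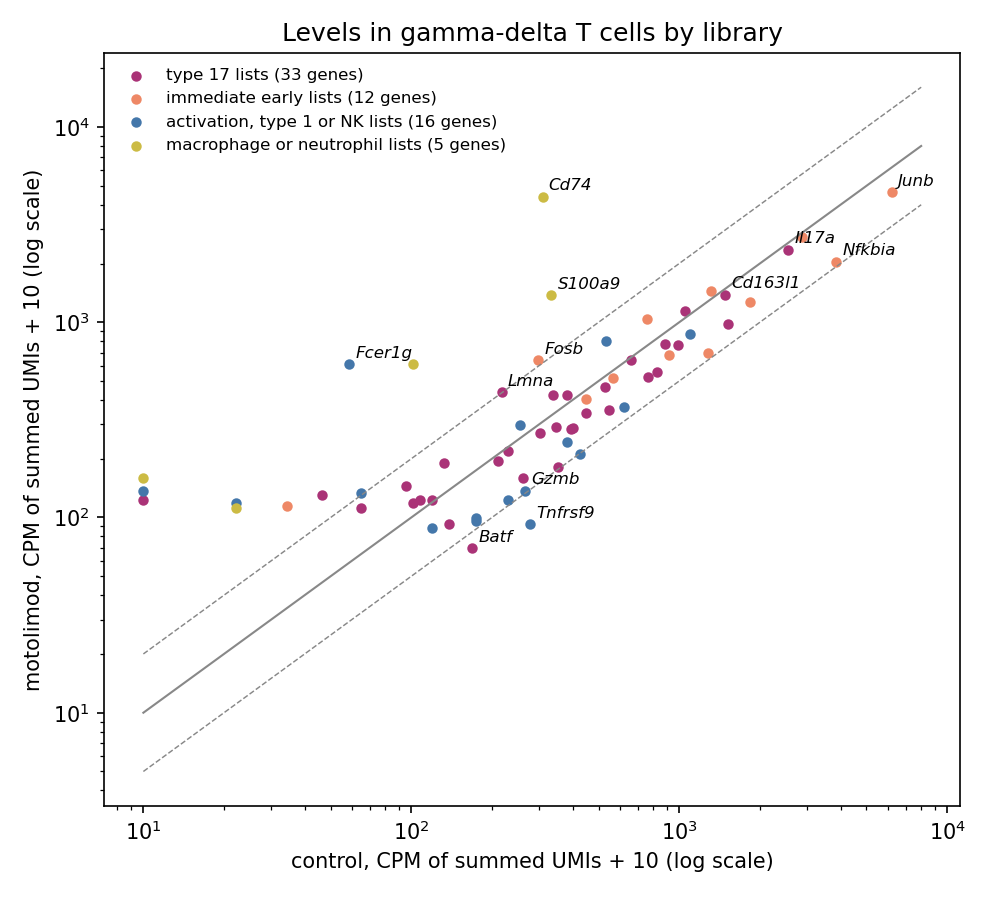
Levels in gamma-delta T cells of the control (x axis) and motolimod library (y axis), as CPM plus 10 on log axes, for genes of 4 groups of lists that reached 100 CPM in either library; the solid line is equality and the dashed lines are 2-fold. Il17a and Cd163l1 lie near equality, Tnfrsf9 and Batf below the lower dashed line, and the macrophage and neutrophil genes above the upper one.

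The genes with the highest ratios were mostly genes of myeloid cells and lay in few cells. H2-Eb1, an MHC class II gene, had 6 control and 359 motolimod UMIs (ratio 36.8, 16.7 to 101), of which 351 lay in 3 members. Cd74, the class II invariant chain, had 49 and 1171 UMIs (14.7, 11.04 to 19.97), 703 of them in 1 member. H2-Ab1 (13.4), Tyrobp (12.6), Ifitm3 (12.4) and Fcer1g (12.3) followed, and Alox5ap had 0 and 55 UMIs, at least 11.3-fold higher against a floor of 3 counts in the library at 0. The chemokine genes Cxcl2 (19 and 395 UMIs, ratio 12.8), Ccl3 (2 and 75 UMIs, ratio 23.0, 6.16 to 194) and Ccl4 (5 and 84 UMIs, ratio 10.3) stood with them.

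UMIs of the macrophage and neutrophil lists moved with these ratios. Of 66 motolimod members 11 held 5 or more UMIs of the macrophage and neutrophil lists, against 3 of 59 control members, and these myeloid-marked members held 30.6% and 8.33% of the members' UMIs. The lists that chose them hold Cd74, S100a8 and S100a9, so nothing is read from where the UMIs of those genes lie. Cd74 is the class II invariant chain, so the values of H2-Eb1 and H2-Ab1 below may follow in part from that choice. These 11 members carried 98.1% of the motolimod H2-Eb1 UMIs, 97.3% of Ccl3, 95.6% of Pf4, 92.4% of Cxcl2, 91.7% of Ccl4 and 81.2% of Fcer1g, but 17.5% of Lmna, 26.8% of Fosb and 50.2% of Ifi27l2a. The macrophage list summed to 409 and 4686 CPM, of which Cd74 alone made up 299 and 4389.5 CPM. The neutrophil list summed to 421 and 2148 CPM. Csf1r and Csf3r, set to 0 by the rule, and also Adgre1, Vcan and Cxcr2 were at 0 in both libraries. S100a8 and S100a9, neutrophil calcium-binding proteins, had 15 and 53 control UMIs and 161 and 366 motolimod UMIs, 134 of the 161 in 1 member. With those members left out, H2-Ab1 had a ratio of 0.382 (0.143 to 0.934), Cxcl2 2.03 (1.01 to 4.35), Tyrobp 3.38 (1.36 to 10.1) and Fcer1g 4.87 (1.87 to 16.1). The intervals of Ifitm3 (0.650, 0.223 to 1.83), Pf4 (1.08, 0.183 to 7.39), H2-Eb1 (1.42, 0.361 to 6.62) and Ccl4 (5.68, 0.730 to 256) spanned 1. Fosb was at 2.44 (1.70 to 3.56), Lmna at 2.39 (1.58 to 3.68) and Ifi27l2a at 3.00 (1.97 to 4.69). In the same way Ccl5 turned from 0.488 to 8.28. Of its control UMIs 63 lay in 1 such member, and of its 54 motolimod UMIs 40 lay in 1 member that was not marked.

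**Figure D5:**
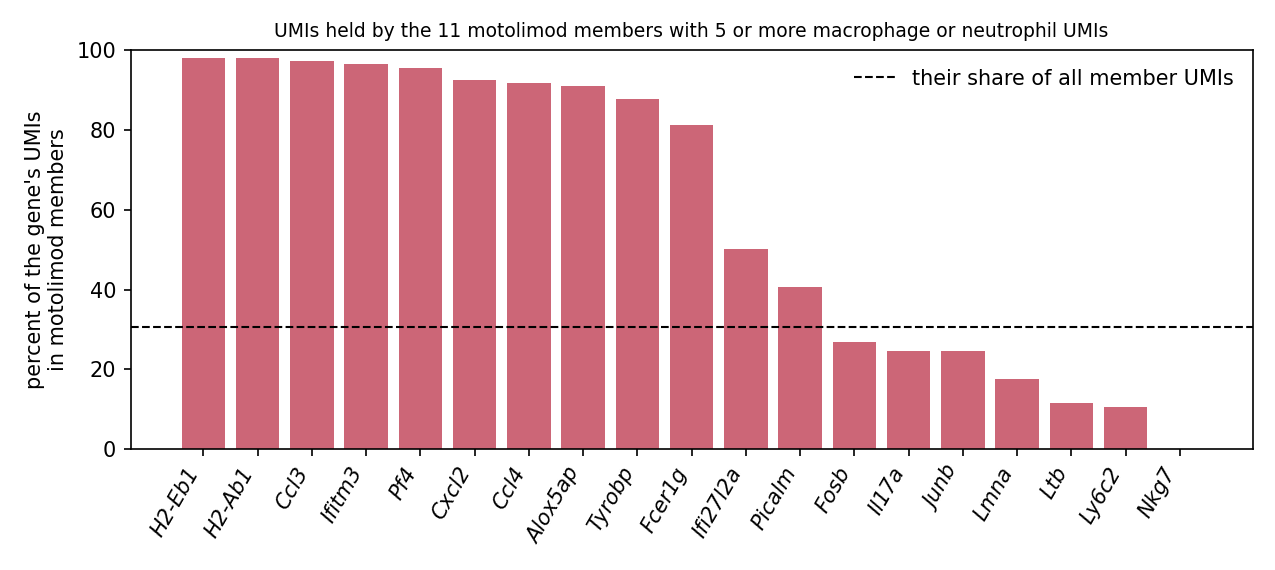
Percent of each gene's UMIs in motolimod gamma-delta T cells (bars) held by the 11 of 66 members with 5 or more macrophage or neutrophil UMIs; the dashed line is their share of all UMIs, 30.6%. Class II and most chemokine genes lie far above the line, and Il17a, Junb, Lmna and Ltb below it.

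A few of the highest ratios stayed high without the myeloid-marked members. Picalm, a clathrin assembly gene, had 1 control UMI and 27 motolimod UMIs spread over 20 members, with at most 4 in a cell (ratio 16.6, 2.74 to 679), and its ratio was 12.99 without the marked members. Ly6c2, a surface gene of monocytes and of memory CD8 T cells, had no control UMI and 95 motolimod UMIs in 8 members, at least 19.5-fold higher, with 10.5% of the UMIs in marked members and 4 of the 8 members among the 11 without Tcrg-V6 or Trdv4. Nkg7 (34 UMIs in 4 members, 33 of the UMIs in 3 of these, at least 6.97-fold higher) and Klrd1 (2 and 29 UMIs, ratio 8.91, 2.25 to 77.1) were also higher with motolimod. Without the marked members Nkg7 was at least 9.20-fold higher and Klrd1 had a ratio of 11.4 (1.73 to 481). The marked members held 15 of the 29 motolimod and 1 of the 2 control UMIs of Klrd1, so this ratio rests on few UMIs. After thinning to 1000 UMIs, the bounds fell to 3.87-fold for Ly6c2 and 1.19-fold for Nkg7. Of the 95 Ly6c2 UMIs, 84 lay in 3 members. The NK receptor list had 2 of 4 genes higher, Klrd1 and Fcer1g, beside 5.45% of all genes, and its median of 1.70 was 0.33 without the marked members, while its most widespread member Klrk1, which encodes NKG2D, was at 244 CPM in 20 and 289 CPM in 33 members.

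The genes with the lowest ratios were each found in 11 to 31 control members. Mir155hg, the host transcript of miR-155, had 26 UMIs in 17 control and 9 UMIs in 8 motolimod members (ratio 0.213, 0.0877 to 0.469). Rgcc, a cell cycle regulator, was at 689 and 217 CPM in 31 and 26 members (0.315, 0.226 to 0.437). The mitochondrial ribosome gene Mrpl32 (0.234), Selenom (0.273), Cdkn2d (0.273), Ramp3 (0.317), the heat shock gene Hsph1 (0.320), the noncoding Snhg15 (0.321) and Cd83 (0.335) complete the 10 lowest with Tnfrsf9. Their control counts ran from 21 to 113 UMIs. Cd83 lay in 3 motolimod members, with 11 of its 12 UMIs in marked ones.

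Naive and memory genes gave few counts. Klf2, a factor of circulating cells, was at 354 and 322 CPM, Tcf7 at 97.6 and 67.5 CPM, and Satb1 at 61.0 and 127 CPM (2.09, 1.01 to 4.74). Ccr7 had 30 control UMIs, all in 1 member that also held 5 or more myeloid UMIs, and 9 motolimod UMIs in 3 members. Among secreted factors, Ltb (lymphotoxin beta) was at 1415 and 1035 CPM in 55 and 62 members, Cxcl10 at 634 and 405 CPM in 11 and 13 members (ratio 0.638, and 0.384 without the marked members, which held 59.3% of its motolimod UMIs), and Tgfb1 at 348 and 296 CPM.

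The gene of the platelet chemokine Pf4 had 3 UMIs in 3 control members and 91 UMIs in 8 motolimod members, a ratio of 18.6 (6.18 to 92.1), with 84 UMIs in 1 motolimod member. Macrophage-gate barcodes of the libraries held 575 and 2012 CPM of Pf4. Cxcr3, a receptor for Pf4 and for interferon-induced chemokines, had 8 and 6 UMIs in 8 and 4 members. Ppbp and Tlr8 had no UMI in a member of either library, and Tlr7 had 0 and 1. For Tlr8, a count of 0 allows, by a bound of 3 counts, up to 5.08% of control and 4.55% of motolimod members to hold a UMI.

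Apart from the macrophage and neutrophil genes and the alpha-beta constant segments (any of Trac, Trbc1 and Trbc2 in 36 of 59 control and 46 of 66 motolimod members), markers of other cell types gave few UMIs. Of the epithelial list, Krt8, Epcam, Krt19 and Krt7 were at 0 in both libraries, and Krt18 had 1 UMI in each. Of the B cell list, Cd79a and Ms4a1 were at 0, Cd79b had 13 and 9 UMIs and Ighm 1 and 8. Dendritic cell markers summed to 30.5 and 18.7 CPM, with Xcr1, Cd209a and Siglech at 0. Cd8a was at 0 in both although the rule did not use it, and Cd40lg, a gene of helper T cells, had 0 and 3 UMIs. Of the innate lymphoid cell list, Il1rl1 was at 0 and Arg1 had 3 and 49 UMIs, 48 of them in 1 motolimod member. The label gamma-delta T cell rests on Trdc and CD3, and the Tcrg-C, Trdv and Tcrg-V genes that the rule did not use were present in 45 (any Tcrg-C), 57 (any delta V) and 50 (any gamma V) of 59 control members and in 60, 59 and 55 of 66 motolimod members.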

How the data were processed

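Droplet single-cell RNA sequencing gave 1 control and 1 motolimod library. The authors deposited raw UMI counts per gene and barcode (32285 genes), with no normalization; cell calling and counting used Cell Ranger, named as 7.1.0 per the file headers and as 5.0.1, with the mm10 build, per the submitters' processing notes. The intron setting is not given in the sources used here. All 8099 and 10037 barcodes were filtered on genes, UMIs and mitochondrial share, and members and comparison cells were gated by gene. CD8 T, CD4 T and NK gates needed Cd8b1, Cd4 or Ncr1 and no Trdc. No doublet caller was run and free RNA was not removed.

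UMIs were summed over members and scaled to CPM, with exact Poisson, Clopper-Pearson and conditional binomial 95% intervals. Members held 163956 and 266773 UMIs in all. Bounds for genes at 0 used 3 counts, for ratios and for shares of cells, and are not exact 95% intervals. A gene counted as different at 2-fold, with no test. For comparison with other lymphocytes, 10 CPM was added to each level. Python 3.11.15 was used with numpy 2.4.6, scipy 1.17.1, pandas 2.3.3 and matplotlib 3.10.9 (seed 1), and the computation was tested on simulated data.

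Members and gene lists were chosen with earlier results of these data known. Genes named are those of the receptor, cytokine and Pf4 lists, up to 5 of the highest level and 4 of the largest ratio in each other list, and the 10 highest and 10 lowest ratios. The ratio rule leaves out genes seen in under 10% of members of the higher library. It also leaves out genes under 10% of the level in macrophage, neutrophil or epithelial barcodes. The 10 leading genes over other lymphocytes were also named. The genes compared between members with and without the 2 main V segments, and those below the other lymphocytes, were chosen after their values were seen. Scart1 and Scart2 matched no symbol, and a few genes that the rule names are not reported here. Alternatives changed the cell filter, the rule, the scaling, the depth and the thresholds; leaving out members with 5 or more macrophage or neutrophil UMIs, or over 10000 UMIs, was added after seeing the data.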

Additional observations from a re-analysis of the deposited data

How the results depend on the processing

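No paired analysis was possible because each group has 1 library. The ratio of shares was 0.899 and became 1.36 under the stricter cell filter of 1000 genes, 2000 UMIs and 5% mitochondrial UMIs, and 1.31 as a share of CD3-positive barcodes. Its other alternatives stayed between 0.789 and 1.23. The Il17a ratio of 0.921 became 1.82 with 2 or more Trdc UMIs, 1.05 with a Tcrg-C UMI, 1.07 with cycling barcodes kept, 1.05 as a mean over members, 1.06 after thinning and 1.08 without members over 10000 UMIs. Genes 2-fold higher and lower (94 and 52) became 160 and 96 with 2 or more Trdc UMIs, 282 and 219 after thinning, 228 and 211 at 1.5-fold and 278 and 193 at 50 CPM; with Trac at 0, 84 were lower. Without members holding 5 or more myeloid UMIs, the median of the secreted factor list turned from 1.57 to -0.28, of the type 1 list from -0.78 to 1.40, of the surface list from -0.20 to 0.11, of the homing list from -0.20 to 0.15, of the type 17 regulator list from -0.05 to 0.14 and of the naive list from -0.13 to 0.74, and that of the NK receptor list went from 1.70 to 0.33. In the same setting, the ratios of 2-fold or more that crossed 1 were Ccl5 8.28, H2-Ab1 0.382, Ifitm3 0.650, Cd74 0.609 and Ccr7. Cd74 is a gene of the lists that chose those members. Ccr7 was at least 2.17-fold higher, a bound, since all its 30 control UMIs lay in a member left out. Cd163l1, from 0.936 to 1.17, and Icos, from 0.971 to 1.16, also crossed 1. The effector cytokine median of -0.13 was 1.05 with 2 or more Trdc UMIs. With members over 10000 UMIs left out Cd74 was 0.976 and H2-Ab1 0.765, with Trac at 0 Il17f was 0.123 and H2-Ab1 0.644, and with cycling barcodes kept Egr1 was 0.754. Of 802 ratios of 74 genes under the alternatives, 45 lay on the other side of 1, in 17 genes. The 1 cycling barcode kept in the control library took its summed UMIs from 163956 to 189950, so that setting leans on 1 deep barcode. The cause of the changes under the alternatives was not tested. Median-of-ratios scaling shifted all log2 ratios by -0.01. Depth limits each gene, since the members held 163956 and 266773 UMIs in all.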

Other observations

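The barcodes that the rule left out carried much of the same programme. Among the 43 control and 29 motolimod barcodes with Trdc and a CD3 gene that were left out, Cd163l1 was seen in 30 (69.8%) and 21 (72.4%), Tcrg-V6 in 23 and 12, Trdv4 in 25 and 17 and Il17a in 17 and 15. They held 38.8% and 25.2% of the Trdc UMIs of their libraries.

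Within the members, Klrk1 was seen in 8 of 33 control members with Il17a and 12 of 26 without, and in 23 of 47 and 10 of 19 motolimod members. Of members with Gzmb, 10 of 18 in the control and 10 of 12 in the motolimod library also held Il17a.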
